A study of Mus musculus with 12 samples.

Results

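Macrophages that have been primed with interferon-γ and then meet lipopolysaccharide (LPS) enter the inflammatory state called M1. The M1 response described here is that of wild-type (WT) bone-marrow-derived macrophages (BMDM), across genes and pathways. It rests on 6 of the 12 RNA libraries of the series: 3 cultures given LPS (WT M1) and 3 time-matched cultures left without it (WT control). Of 23440 genes in the deposited table, 10594 reached 1 TPM (transcripts per 1000000 transcripts) in at least 3 of these 6 libraries and were tested. A further 8262 were listed at 0 in all 6, and 4584 were above 0 but missed that minimum.

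Both groups came from Bmal1 f/f mice of the C57/BL6 strain without Cre, used by the study as its wild type, so all 6 cultures carry the floxed alleles. The study used mice between 8 and 24 weeks of age. Bone marrow was differentiated for 7 days in medium with 30% L929-conditioned medium, a source of the growth factor Csf1. Every culture was then primed overnight with Ifn-γ at 10 ng/mL, and WT M1 cultures received LPS at 10 ng/mL for 8 h. WT control is therefore an interferon-primed state and not a resting one. The replicates are cell cultures. How many mice they came from is not stated in the paper or the labels, and the p-values cover differences among cultures alone.

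LPS is bound by Cd14 and the Tlr4 receptor complex, which signals through the adaptors Myd88 and Ticam1 to NF-κB, AP-1 and interferon regulatory factors. Early targets include cytokines, chemokines and the inhibitors that later shut the pathway down, and secreted type I interferon adds a further layer of antiviral genes in an autocrine loop. Interferon-γ acts through factors that include Irf1 and induces guanylate-binding proteins and MHC class II.

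Levels are in TPM, which corrects for transcript length and fixes each library's total. A gene was called higher or lower at a Benjamini-Hochberg adjusted p under 0.05 in limma with a fold over 1.5, both on log2(TPM + 1), a scale that understates the change of low genes. On this rule 1374 genes (13% of those tested) were called higher and 4366 (41.2%) lower in WT M1 cultures. The adjusted p did little of that selection. It was passed by 9145 genes, 86.3% of all, and of 5742 genes past 1.5-fold only 2 missed it, so the fold minimum set the calls. With the minimum level required in only 3 libraries, 219 tested genes lay under 1 TPM in every control culture and 206 of those were called higher, while 543 lay under 1 TPM in every M1 culture and 506 of those were called lower. Such genes entered through the group in which they were high.

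Genes above 0 numbered 13360 to 13401 in M1 libraries and 13344 to 13383 in control libraries. Across genes, log2(TPM + 1) correlated at 0.997 to 0.998 among M1 cultures, 0.994 to 0.998 among control cultures and 0.884 to 0.893 between the groups, as a description.

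The upstream sequences of 6 responding genes are shown here because their products recur below. They were picked because each holds a short element of one of the pathways just described, so that they do not stand for responding genes at large. They are the 250 bases before the start of each gene in RefSeq (GRCm38.p6), read 5′ to 3′ on the gene's own strand, with the matched letters in capitals. Il6 and Cxcl2 hold the NF-κB-type letters GGANTTTCC. Hspa1a holds GAANNTTC, a pair of heat-shock units, and Gbp2, Rsad2 and Cxcl10 hold GAAANNGAA, the core of an interferon-stimulated response element, on one strand or the other. The window of Il12b, the gene with the largest rise, was searched too and holds no NF-κB-type letters.
Il6, chr5:30012864-30013113, plus strand: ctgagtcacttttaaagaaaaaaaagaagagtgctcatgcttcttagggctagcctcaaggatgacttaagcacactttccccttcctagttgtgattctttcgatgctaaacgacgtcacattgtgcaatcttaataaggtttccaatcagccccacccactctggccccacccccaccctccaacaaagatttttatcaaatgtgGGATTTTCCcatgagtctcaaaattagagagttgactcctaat
Cxcl2, chr5:90903649-90903898, plus strand: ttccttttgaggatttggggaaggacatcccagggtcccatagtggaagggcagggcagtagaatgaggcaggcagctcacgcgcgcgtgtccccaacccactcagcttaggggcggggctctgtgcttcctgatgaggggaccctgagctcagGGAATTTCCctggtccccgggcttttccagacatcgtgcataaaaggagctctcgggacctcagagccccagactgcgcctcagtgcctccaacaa
Hspa1a, chr17:34972157-34972406, minus strand: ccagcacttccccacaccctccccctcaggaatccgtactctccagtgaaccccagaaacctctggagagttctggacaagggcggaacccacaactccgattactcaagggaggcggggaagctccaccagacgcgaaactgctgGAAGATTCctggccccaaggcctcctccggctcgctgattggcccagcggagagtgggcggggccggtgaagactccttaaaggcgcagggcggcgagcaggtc
Gbp2, chr3:142620413-142620662, plus strand: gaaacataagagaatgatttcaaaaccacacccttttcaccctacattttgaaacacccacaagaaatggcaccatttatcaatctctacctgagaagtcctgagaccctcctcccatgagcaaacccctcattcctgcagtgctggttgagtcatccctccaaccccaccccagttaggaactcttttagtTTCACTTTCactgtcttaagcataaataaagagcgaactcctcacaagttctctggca
Rsad2, chr12:26456453-26456702, minus strand: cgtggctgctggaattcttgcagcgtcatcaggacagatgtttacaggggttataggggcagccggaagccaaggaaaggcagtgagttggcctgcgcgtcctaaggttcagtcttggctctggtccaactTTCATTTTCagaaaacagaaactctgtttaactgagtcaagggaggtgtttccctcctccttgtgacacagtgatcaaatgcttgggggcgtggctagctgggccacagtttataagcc
Cxcl10, chr5:92348890-92349139, minus strand: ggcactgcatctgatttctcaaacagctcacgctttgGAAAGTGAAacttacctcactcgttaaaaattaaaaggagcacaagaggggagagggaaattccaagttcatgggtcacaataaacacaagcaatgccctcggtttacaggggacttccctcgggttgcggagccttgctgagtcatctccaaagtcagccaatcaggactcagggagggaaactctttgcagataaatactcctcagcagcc

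Windows of this kind could be matched by symbol for 8030 of the 10594 genes, and both strands were searched. The interferon element stood in 9 of 9 matched windows of guanylate-binding proteins and immunity-related GTPases and in 8 of 19 windows (42.1%) of antiviral genes, against 6.61% of all windows. The heat-shock pair stood in 7 of 16 windows (43.8%) of cytosolic chaperones, against 5.11% of all. NF-κB-type letters stood in 4 of 8 windows (50%) of CXC chemokines, in 0 of 6 windows of CC chemokines and in 3 of 79 windows (3.8%) of genes called higher by more than 8-fold, against 1.16% of all. The interferon element stood in 12 of those 79 windows (15.2%) and in 8 of 47 windows (17%) of genes called lower by more than 8-fold. The letters TATAAA were in 12 of 79 windows (15.2%) of genes called higher and 2 of 47 (4.26%) of genes called lower by more than 8-fold, against 6.05% of all. A match describes letters only. The start of Il6 in RefSeq lies 47 bases from that in the deposited table.

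In TPM as deposited, rises were fewer than falls but reached further. That they were fewer depends on the scaling described below. Among called genes 287 were higher by more than 4-fold and 354 lower, 110 and 57 passed 8-fold, and 22 and 1 passed 32-fold. Past 64-fold there were 11 called higher and none called lower. Il12b, the p40 subunit of interleukin-12 and interleukin-23, led the rises with 2763, 2017 and 2427 TPM in M1 cultures, against 0.659, 0.391 and 1.09 TPM in control cultures (log2 fold change 10.46, standard error 0.14, adjusted p = 1.7e-16, limma). Cnr2, a cannabinoid receptor, led the falls with 0.646, 0.634 and 0.308 TPM in M1 cultures, against 49.2, 48.6 and 49.2 TPM in control cultures (log2 fold change -5.04, standard error 0.083, adjusted p = 1.2e-15). Neither gene's M1 values overlapped its control values. Among the 10 largest rises were also Mmp13, a collagenase (6.74), and Gdf15, a stress-induced cytokine (6.28). Among the 10 largest falls were Txnip, an inhibitor of thioredoxin and glucose uptake (-4.12), Lair1, an inhibitory collagen receptor (-4.13), and the mitotic cyclin Ccnb2 (-4.14).

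A small number of abundant transcripts carried much of the gain. Genes called higher made up 31.7% ± 0.026 of all TPM in M1 cultures and 9.07% ± 0.19 in control cultures (SD, n = 3 each), and genes called lower 19.9% ± 0.019 in M1 cultures and 41.3% ± 0.81 in control cultures. These shares follow from the calls and describe them. Summed over the genes that gained, the gain came to 26.8% of a library's TPM. Of that gain 37 genes supplied 50%, whereas 155 genes supplied 50% of the loss.

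**Figure D1:**
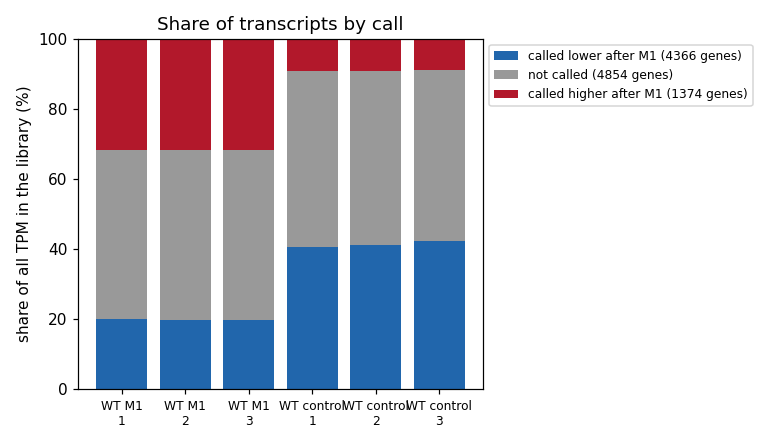
Share of all TPM (%) held by genes called higher, not called and called lower, with 1 bar for each of the 3 WT M1 and 3 WT control cultures. Genes called higher hold 31.7% on average in M1 cultures and 9.07% in control cultures.

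Ccl5, a chemokine for T cells and monocytes, gained the most, with 28061, 26857 and 27579 TPM in M1 cultures, against 884, 822 and 741 TPM in control cultures. Fth1, the heavy chain of the iron store ferritin, had 21482, 23168 and 23163 TPM in M1 cultures, against 5756, 5879 and 6127 TPM in control cultures. Saa3, an acute-phase protein, had 12882, 15261 and 13107 TPM in M1 cultures, against 210.4, 237 and 232 TPM in control cultures. These 3 genes did not overlap between the groups, and their mean gains were 2.67%, 1.67% and 1.35% of all TPM. The peroxide-removing Prdx1 and Prdx5, the itaconate-producing enzyme Irg1 and the heme oxygenase Hmox1 followed. Lyz2, the macrophage lysozyme, lost the most, with 15081, 15057 and 14840 TPM in M1 cultures, against 31785, 32592 and 34645 TPM in control cultures. Gbp2, a guanylate-binding protein, came next with 4734, 4453 and 4616 TPM in M1 cultures, against 13830, 14155 and 15609 TPM in control cultures. Other large losses were those of the cathepsins Ctsd, Ctss and Ctsb, the lysosomal activator Psap and the lipoprotein lipase Lpl, which was at 563 ± 25.7 TPM in M1 cultures and 2795 ± 262 TPM in control cultures (SD, n = 3 each).

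Because every library sums to the same total, scaling decides how many genes count as lower. The median log2 fold change over the 10594 genes was -0.43 in TPM as deposited. Median-ratio scaling divides each library by its median ratio to the average library, with factors of 0.820 to 0.859 in M1 cultures and 1.14 to 1.18 in control cultures, and it brought the median to -0.0015. The calls were then 2428 higher (22.9%) and 2254 lower (21.3%), so rises made up 51.9% of calls, against 23.9% before. All 1374 genes called higher stayed so, 1054 uncalled genes joined them, 2112 genes called lower lost the call, and none changed direction. TPM do not tell whether total RNA per cell differed, so list counts are given below in TPM as deposited and then after scaling. Nfkbia, for instance, had a log2 fold change of 2.46 in TPM as deposited and 2.93 after scaling.

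**Figure D2:**
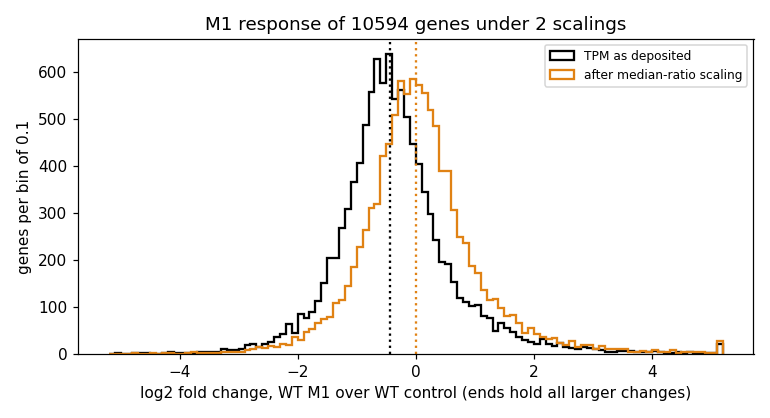
Number of genes per bin of log2 fold change (WT M1 over WT control) for TPM as deposited and after median-ratio scaling. Dotted lines mark the medians, -0.43 and -0.0015; the shape moves sideways as a whole.

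Members of 56 gene lists were counted, and the plot of log2 fold changes by list shows those with at least 8 tested members outside the cell markers. CC chemokines had the highest median, 2.97, and cell cycle genes the lowest, -2.05. Each count is set against all tested genes, of which 13% were higher and 41.2% lower in TPM as deposited, and 22.9% higher and 21.3% lower after scaling. A list whose shares lie near these does not stand out from the other genes.

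**Figure D3:**
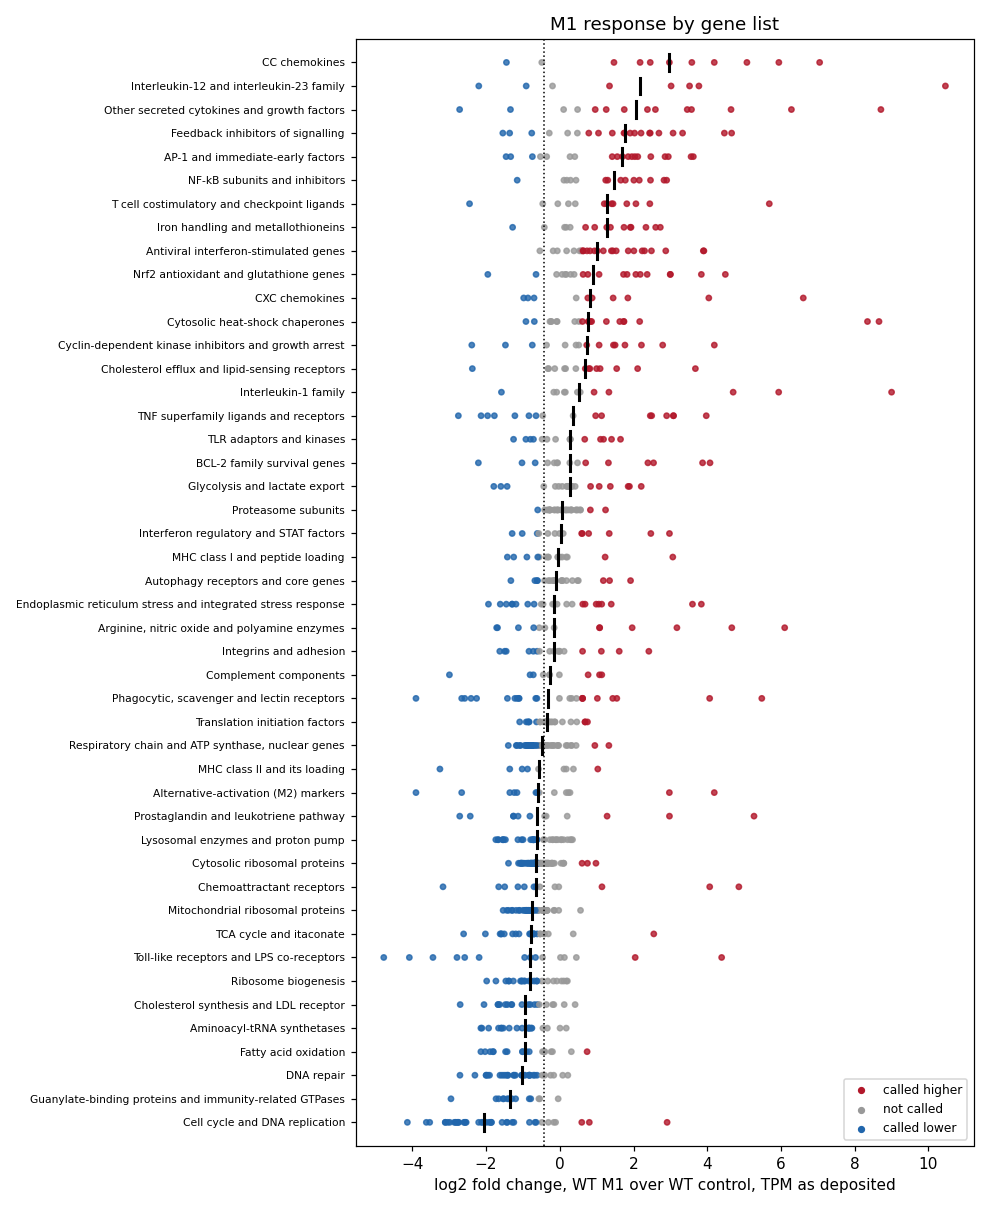
Log2 fold change (WT M1 over WT control, TPM as deposited) of each tested member, 1 point a gene, coloured by call, with a black bar at the list's median. The dotted line is the median of all genes, -0.43; list medians run from 2.97 for CC chemokines to -2.05 for cell cycle genes.

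Receptors that sense microbes changed in both directions. Of 15 tested Toll-like receptors and LPS co-receptors, 2 were called higher (13.3%) and 9 lower (60%), or 4 (26.7%) and 6 (40%) after scaling. Cd14, which hands LPS to its receptor, had 1576, 1562 and 1539 TPM in M1 cultures, against 73.9, 75.9 and 70.3 TPM in control cultures (log2 fold change 4.39, standard error 0.040, adjusted p = 4.4e-18, limma). Tlr4, the LPS receptor itself, had 8.32, 6.13 and 7.61 TPM in M1 cultures, against 44.95, 43.8 and 58.4 TPM in control cultures (log2 fold change -2.58, standard error 0.11, adjusted p = 2.7e-11). Cd14 thus rose while Tlr4 fell, with no overlap between groups in either gene. Tlr7, for single-stranded RNA, rose by 2.05. Cd180 and its partner Ly86, a receptor pair related to the Tlr4 complex, had log2 fold changes of -2.79 and -2.19, and Tlr13, for bacterial ribosomal RNA, one of -3.44. Ly96, which completes the Tlr4 complex, was called lower at -0.66 (adjusted p = 0.012), although its values overlapped, with 26.7, 12.7 and 18.8 TPM in M1 cultures, against 25.9, 24.995 and 41.1 TPM in control cultures. This call was lost without WT M1 replicate 2 (-0.40, adjusted p = 0.069) or without WT control replicate 3 (-0.44, adjusted p = 0.058), as well as after scaling.

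Downstream, 5 of 15 adaptors and kinases were called higher and 4 lower, or 8 and 1 after scaling. Irak2, a kinase of the Myd88 complex, had 149, 145 and 144 TPM in M1 cultures, against 55.4, 56.8 and 51.5 TPM in control cultures. Irak1, its relative in the same complex, had 35.2, 31.9 and 33.7 TPM in M1 cultures, against 55.9, 56.2 and 55.2 TPM in control cultures. The fall of Irak1 was no longer called after scaling, at -0.25. Irak3, which restrains the complex, rose by 1.65, and the adaptor Ticam1 by 1.19, while the adaptor Tirap fell, at -1.25.

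Most inhibitors of the pathway rose. Of 21 feedback inhibitors 15 were called higher and 3 lower, or 17 and 2 after scaling, with a median log2 fold change of 1.76 against -0.43 over all genes. Dusp1, a phosphatase that switches off MAP kinases, had 274, 268 and 276 TPM in M1 cultures, against 10.1, 9.63 and 9.68 TPM in control cultures (log2 fold change 4.66, standard error 0.048, adjusted p = 1.4e-17, limma). Dusp2, a phosphatase of the same family, rose by 4.47, Tnfaip3, an enzyme that edits ubiquitin on signalling proteins, by 2.03, and Socs3, which blocks cytokine receptors, by 3.07. The 3 that fell were Zfp36l1, a protein of mRNA decay (-1.55), and the deubiquitinases Otud1 (-1.36) and Cyld (-0.76), the last of them not called after scaling. In the NF-κB list 9 of 14 were higher and 1 lower, or 12 and 1 after scaling. The inhibitors Nfkbia, Nfkbiz and Nfkbie were its rises with the smallest p, at 2.46, 2.90 and 2.01, and the kinase gene Chuk was the fall, at -1.16.

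Of 19 AP-1 and immediate-early factors 12 were higher and 3 lower, or 14 and 2 after scaling. Batf, an AP-1 partner of interferon regulatory factors, had 304, 312 and 315 TPM in M1 cultures, against 24.9, 29.1 and 22.4 TPM in control cultures. Fos, the classical early AP-1 subunit, had 24.6, 23.7 and 24.5 TPM in M1 cultures, against 73.8, 68.3 and 63.4 TPM in control cultures, so at 8 h it lay lower in every M1 culture. Interferon regulatory and STAT factors were divided, with 6 of 14 higher and 3 lower, or 6 and 1 after scaling. Stat4, which transmits interleukin-12 signals, rose by 2.98 and Stat3 by 0.78. Irf1 and Irf2 fell, at -0.61 and -1.02, and neither was called after scaling.

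Il12b, Il1b and Il6 were the 3 largest rises of all tested genes on the log2(TPM + 1) scale. Of 12 genes of the interleukin-1 family 5 were higher and 1 lower, or 8 and 1 after scaling. Il1b, the gene of interleukin-1β, had 2642, 2526 and 2596 TPM in M1 cultures, against 3.18, 3.74 and 5.48 TPM in control cultures, and its M1 values lay far above the highest control. Il1rn, the antagonist of the same receptor, had 3137, 3065 and 2949.7 TPM in M1 cultures, against 112, 112 and 124 TPM in control cultures (log2 fold change 4.70, standard error 0.042, adjusted p = 4.4e-18, limma), so the antagonist was the more abundant of the 2 in M1 and in control cultures. Il1a rose by 5.94, against a fall of the receptor subunit Il18rap, at -1.58. In the interleukin-12 family 5 of 8 were higher and 2 lower, as they were after scaling. Il27 and Ebi3, the subunits of interleukin-27, rose by 3.77 and 3.52, and the 2 falls were receptor chains, Il12rb2 at -2.20 and Il27ra at -0.91. Il6 had 593, 407 and 518 TPM in M1 cultures, against 0.0845, 0.176 and 0.339 TPM in control cultures, without overlap. Of 14 other secreted cytokines and growth factors 10 were higher and 2 lower, or 11 and 2 after scaling. Inhba, a subunit of activin, rose by 4.65, while the growth factors Pdgfb and Igf1 fell, at -2.72 and -1.34.

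The TNF superfamily had 8 of 17 genes higher (47.1%) and 7 lower (41.2%), or 9 (52.9%) and 5 (29.4%) after scaling. In TPM as deposited its share of falls was that of all genes, 41.2%, and after scaling all genes had 21.3%. Of its 7 falls 5 were ligands. Tnf itself had 1603, 1535 and 1604 TPM in M1 cultures, against 300.5, 285 and 277 TPM in control cultures. Tnfrsf1b, the inducible receptor for Tnf, had 735, 757 and 726 TPM in M1 cultures, against 85.7, 85.7 and 87.5 TPM in control cultures (log2 fold change 3.08, standard error 0.034, adjusted p = 1.9e-17, limma). Tnfrsf1a, the constitutive receptor, had 317, 321 and 331 TPM in M1 cultures, against 585, 587 and 562 TPM in control cultures. In M1 cultures the inducible receptor was thus the more abundant of the 2 in TPM, and in control cultures the constitutive one was. The fall of Tnfrsf1a was not called after scaling (-0.37). Tnfsf10, 1 of those ligands, which triggers cell death, fell, at -1.77.

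Of 11 tested CC chemokines 9 were called higher and 1 lower, as they were after scaling. The list summed to 3.38% ± 0.053 of all TPM in M1 cultures and 0.182% ± 0.0044 in control cultures (SD, n = 3 each). Ccl5 alone supplied most of it, with a mean of 27499 TPM of a summed 33784 TPM in M1 cultures. Ccl3 and Ccl4, which draw monocytes and T cells, rose by 7.05 and 5.94; the fall was that of Ccl6, at -1.45. Of 10 CXC chemokines 6 were higher and 3 lower, or 7 and 1 after scaling. Cxcl2, which draws neutrophils, had 334, 338 and 319 TPM in M1 cultures, against 2.04, 2.73 and 2.47 TPM in control cultures. Cxcl10, an interferon-induced ligand for T cells, had 3502, 3395 and 3609 TPM in M1 cultures, against 2107, 2093 and 2002 TPM in control cultures, a rise of 0.76 on the log2 scale. Cxcl9, a ligand of the same receptor, had 7074, 6361 and 6631 TPM in M1 cultures, against 4672, 4738 and 5339 TPM in control cultures, and its log2 fold change of 0.45 stayed under 1.5-fold, but came to 0.92 with a call after scaling.

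Of 13 receptors for chemoattractants 3 were higher (23.1%) and 7 lower (53.8%), against 13% and 41.2% of all genes, and after scaling 3 (23.1%) and 4 (30.8%), against 22.9% and 21.3%. Ccr7, which guides cells to lymph nodes, had 55.5, 53.5 and 57.02 TPM in M1 cultures, against 0.977, 1.06 and 0.793 TPM in control cultures (log2 fold change 4.86, standard error 0.14, adjusted p = 4.7e-13, limma). Ccr2, which brings monocytes to inflamed tissue, had 7.53, 5.02 and 5.004 TPM in M1 cultures, against 55.2, 54.1 and 71.4 TPM in control cultures. Neither overlapped between groups. Ccrl2, a receptor that binds chemerin without signalling, rose by 4.07, and Ccr1, which binds several of the induced CC chemokines, had a log2 fold change of -1.49.

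**Figure D4:**
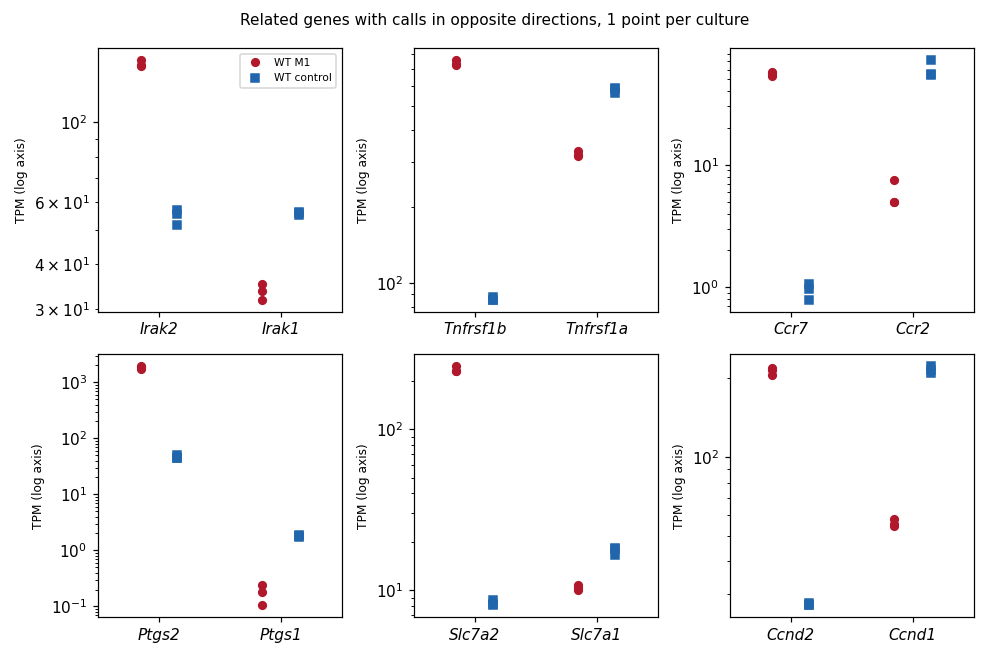
TPM (log axis) of 6 pairs of related genes, with 3 WT M1 cultures left of 3 WT control cultures for each gene. In each pair the first gene was called higher and the second lower; the pairs were chosen after their values were seen.

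The interferon genes fell into lists with opposite counts. Of 14 guanylate-binding proteins and immunity-related GTPases, effectors against intracellular microbes that interferon-γ induces, none was called higher and 11 were called lower, with a median log2 fold change of -1.34. After scaling, 9 were lower, none was higher, and the median was -0.87. Of 25 antiviral genes linked to type I interferon, 19 were higher and none lower, with a median of 1.02, and 22 and 0 after scaling, with a median of 1.49. Summed, the first list took 1.02% ± 0.038 of all TPM in M1 cultures and 2.58% ± 0.19 in control cultures, and the antiviral list 1.72% ± 0.018 in M1 cultures and 0.65% ± 0.010 in control cultures. Some of these GTPases are close paralogs, between which reads can be split.

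**Figure D5:**
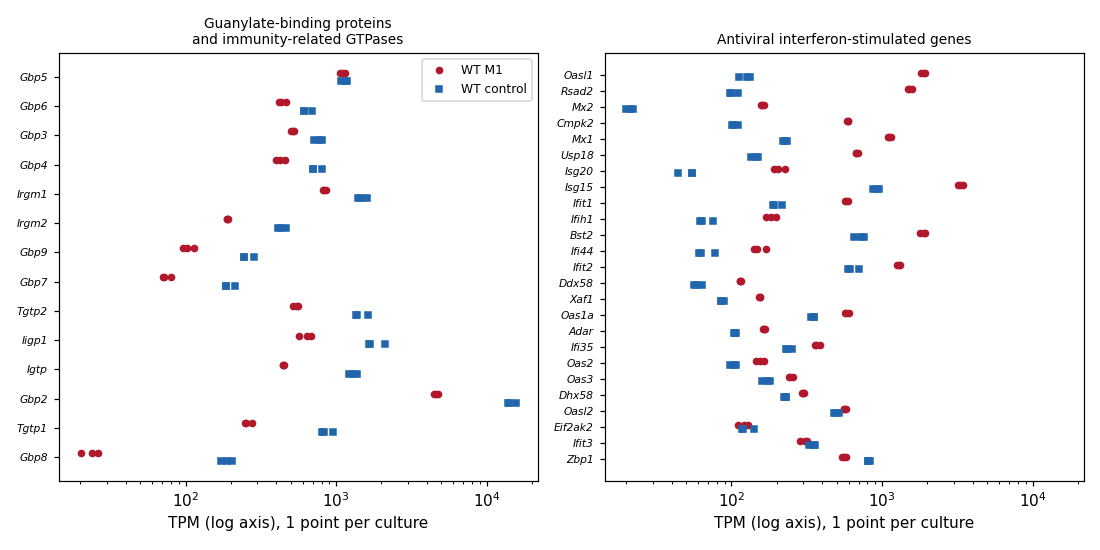
TPM (log axis) of each gene in the 3 WT M1 (circles) and 3 WT control (squares) cultures, for 14 GTPases (left) and 25 antiviral genes (right), ordered by log2 fold change. The GTPases lie lower in M1 cultures except where values overlap in Gbp5, and most antiviral genes lie higher.

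Gbp2, the most abundant of the GTPases, was called lower (log2 fold change -1.66, standard error 0.044, adjusted p = 1.6e-13, limma) and remained so after scaling at -1.18. Gbp8 had the largest fall of the list, at -2.95, and Igtp, which helps destroy the vacuoles of parasites, one of -1.54. Gbp5, which promotes inflammasome assembly, had 1137, 1057 and 1102 TPM in M1 cultures, against 1077, 1138 and 1184 TPM in control cultures, values that overlapped. Rsad2, an enzyme that makes a chain-terminating nucleotide, had 1591, 1487 and 1511 TPM in M1 cultures, against 97.5, 98.7 and 109.8 TPM in control cultures (log2 fold change 3.90, standard error 0.053, adjusted p = 1.9e-16). Oasl1, a relative of the RNA-sensing oligoadenylate synthetases, had 1813, 1921 and 1888 TPM in M1 cultures, against 127, 133 and 112 TPM in control cultures. Mx2, a dynamin-like antiviral GTPase, rose by 2.88, and Isg15, a ubiquitin-like modifier, by 1.86. Both lists carry the interferon element in many of the windows described above, in 9 of 9 and 8 of 19. Ifnb1, the gene of interferon-β, was at 2.29, 3.05 and 4.38 TPM in M1 cultures, against 0.358, 0.124 and 0.239 TPM in control cultures.

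Genes of antigen presentation changed in both directions. Ciita, the master activator of MHC class II, had 22.03, 19.8 and 19.96 TPM in M1 cultures, against 216, 208 and 189.6 TPM in control cultures (log2 fold change -3.25, standard error 0.059, adjusted p = 3.3e-15, limma). H2-Ab1, a class II chain, had 3256, 3603 and 3463 TPM in M1 cultures, against 1791, 1753 and 1514 TPM in control cultures, a rise of 1.03. The activator was thus lower and this target higher in every M1 culture at 8 h. Of the 9 tested class II genes 1 was higher (11.1%) and 4 lower (44.4%), near the 13% and 41.2% of all genes. After scaling 3 were higher (33.3%) and 3 lower (33.3%), against 22.9% and 21.3%, with few members. H2-Aa and Cd74, the invariant chain, were then called higher too, at 0.65 and 0.84. Ifi30, a thiol reductase of antigen processing, fell, at -1.36. Of 17 class I and peptide-loading genes 2 were higher (11.8%) and 4 lower (23.5%), or 4 (23.5%) and 2 (11.8%) after scaling. Their share of rises lay near that of all genes, and their share of falls below it. H2-Eb1 and the class I genes H2-K1 and H2-M3 were listed at 0 in all 6 libraries, as was Rpl26, a ribosomal protein gene that every cell uses, so a listed 0 may be a failed estimate and is not read as absence. Of 13 costimulatory and checkpoint ligands of T cells 8 were higher and 1 lower, or 10 and 1 after scaling. Cd40 had 3202, 3098 and 3184 TPM in M1 cultures, against 366, 396 and 356 TPM in control cultures, and Slamf1, a self-binding receptor, rose by 5.68, Slamf7 by 2.44 and Cd83 by 2.07. Havcr2, the checkpoint receptor Tim-3, was the fall, at -2.45.

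Uptake receptors changed in both directions, with 8 of 24 higher and 12 lower, or 11 and 10 after scaling, so which direction was the more frequent depended on the scaling. Marco, a scavenger receptor for bacteria, had 477, 464 and 493 TPM in M1 cultures, against 9.996, 10.9 and 8.40 TPM in control cultures (log2 fold change 5.48, standard error 0.10, adjusted p = 5.8e-15, limma). Clec4e, the glycolipid receptor Mincle, rose by 4.07, and Clec4d, which pairs with it, by 1.44. Clec10a, a galactose-binding lectin, had 0.485, 0.717 and 0.793 TPM in M1 cultures, against 23.4, 23.8 and 24.2 TPM in control cultures. Also lower were Clec7a, the β-glucan receptor Dectin-1 (-2.58), Mrc1, the mannose receptor (-2.66), and Scarb1, a receptor for high-density lipoprotein (-2.41). None of 33 lysosomal genes was called higher and 18 were lower, and after scaling 4 were higher (12.1%) and 8 lower (24.2%), the lower share close to that of all genes. Their sum was 2.41% ± 0.040 of all TPM in M1 cultures and 3.91% ± 0.0038 in control cultures. Hexa, an enzyme of ganglioside breakdown, had 444, 466 and 459 TPM in M1 cultures, against 1327, 1335 and 1328 TPM in control cultures. The fall of Hexa was called under both scalings.

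Of 13 genes of arginine, nitric oxide and polyamines 6 were higher and 4 lower, or 6 and 3 after scaling. Slc7a2, the inducible arginine transporter, had 246, 230.4 and 229 TPM in M1 cultures, against 8.17, 8.04 and 8.66 TPM in control cultures (log2 fold change 4.67, standard error 0.045, adjusted p = 8.1e-18, limma). Slc7a1, the housekeeping transporter for the same amino acid, had 10.002, 10.4 and 10.8 TPM in M1 cultures, against 17.9, 18.3 and 16.6 TPM in control cultures, and its fall was not called after scaling (-0.27). Gch1, which makes the cofactor of nitric oxide synthase, rose by 1.96, and Srm and Sms, the synthases of spermidine and spermine, had -1.71 and -1.12. Of 24 genes of the TCA cycle and itaconate, 1 was higher and 17 lower, or 2 and 9 after scaling. The rise was that of Irg1, with 6005, 5672 and 5787 TPM in M1 cultures, against 961, 1011 and 1007 TPM in control cultures. Idh2, the mitochondrial isocitrate dehydrogenase, had 4.76, 4.83 and 5.48 TPM in M1 cultures, against 36.0, 35.6 and 35.6 TPM in control cultures. Of 50 nuclear genes of the respiratory chain 2 were higher (4%) and 21 lower (42%), the share of falls being that of all genes, and after scaling 7 were higher (14%) and 5 lower (10%), both below the shares of all genes. Fatty acid oxidation had 1 of 18 higher and 11 lower, or 2 and 7 after scaling, led by Cpt1a, its entry enzyme (-1.89), and Acadm, a dehydrogenase (-1.81), both still lower after scaling.

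Genes of cholesterol synthesis and uptake and genes of cholesterol efflux and lipid sensing had opposite counts. Of 20 genes of synthesis and uptake none was higher and 14 were lower, or 1 and 10 after scaling. Dhcr7, which catalyses a last step of the synthesis, fell, at -2.70. Hmgcs1, which every cell needs for this synthesis, was another gene listed at 0 in all 6 libraries, possibly a failed estimate. Of 15 efflux and lipid-sensing genes 8 were higher and 1 lower, or 11 and 1 after scaling. Mylip, which degrades the LDL receptor, had 96.3, 99.1 and 96.7 TPM in M1 cultures, against 20.97, 22.4 and 21.9 TPM in control cultures. Nr1h3, the sterol sensor LXRα, rose by 1.54 and Fabp4, a fatty acid carrier, by 3.68. The fall was that of Pparg, at -2.37.

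Of 12 prostaglandin and leukotriene genes 3 were higher and 6 lower, or 4 and 5 after scaling. Ptgs2, the inducible cyclooxygenase, had 1938, 1734 and 1872 TPM in M1 cultures, against 45.3, 45.2 and 50.3 TPM in control cultures. Ptgs1, the constitutive cyclooxygenase, had 0.181, 0.239 and 0.104 TPM in M1 cultures, against 1.80, 1.77 and 1.87 TPM in control cultures, which is low in both groups. Ptges, the synthase of prostaglandin E2, rose by 2.98, and its receptor gene Ptger4 by 1.28. Falls were those of Tbxas1, the thromboxane synthase, with 46.8, 42.6 and 49.3 TPM in M1 cultures, against 315, 310.2 and 301 TPM in control cultures, and of Alox5ap and Lta4h of the leukotriene branch, at -2.43 and -1.26.

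Most genes of division fell. Of 40 cell cycle and replication genes 3 were higher and 33 lower, with a median log2 fold change of -2.05, or 3 and 30 after scaling at a median of -1.69. Mcm6, a subunit of the replicative helicase, had 6.91, 8.10 and 7.11 TPM in M1 cultures, against 71.5, 66.5 and 75.3 TPM in control cultures (log2 fold change -3.11, standard error 0.071, adjusted p = 3.3e-14, limma). Lig1, the ligase of replication, fell, at -2.71, and so did Apex1, a base-excision repair nuclease, at -1.95. Of 32 DNA repair genes none was higher and 26 were lower, or 1 and 18 after scaling. Ccnd2, a cyclin of G1, had 218, 206 and 215 TPM in M1 cultures, against 27.2, 27.3 and 27.8 TPM in control cultures. Ccnd1, its relative, had 58.1, 55.8 and 54.4 TPM in M1 cultures, against 222, 214 and 209.9 TPM in control cultures. In M1 cultures Ccnd2 was the more abundant of the 2 in TPM, and in control cultures Ccnd1 was. Cdkn1a, the cell cycle inhibitor p21, had 816, 791 and 790.4 TPM in M1 cultures, against 279, 284 and 282 TPM in control cultures and was called higher. Gadd45b, a stress-induced growth regulator, rose by 4.19, and Mdm2, which degrades p53, by 1.77. In the list of cyclin-dependent kinase inhibitors and growth arrest 8 of 15 were higher (53.3%) and 3 lower (20%). After scaling 10 were higher (66.7%) and 2 lower (13.3%). Its falls in TPM as deposited were Ccng1, Cdkn2c and Trp53.

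Of 15 BCL-2 family genes 6 were higher and 3 lower, or 8 and 1 after scaling. Bcl2a1b, Bcl2a1d and Bcl2a1a, near-identical copies of a pro-survival gene whose reads can be split, rose by 2.54, 4.08 and 3.87. The pro-death genes Bmf, Bid and Bak1 had -2.21, -1.03 and -0.67, of which Bmf alone was called after scaling.

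Ribosomal protein genes fell mainly in TPM as deposited. Of the 74 tested 3 were higher and 43 lower, and after scaling 3 were higher and 3 lower. Together they took 5.30% ± 0.11 of all TPM in M1 cultures and 7.46% ± 0.32 in control cultures. The 3 rises were Rplp1, Rplp2 and Rpl36, whose control cultures disagreed. Rplp1 had 2064, 2032 and 2086 TPM in M1 cultures, against 1941, 1467 and 874 TPM in control cultures, with WT control replicate 3 the lowest. The respiratory gene Uqcrq showed the same order, with 313, 344 and 342 TPM in M1 cultures, against 230.1, 183 and 119 TPM in control cultures. Without that culture the log2 fold changes of Rplp1, Rplp2 and Rpl36 were 0.29, 0.53 and 0.59, and that of Uqcrq was 0.69; the calls of Rplp1 and Rplp2 were lost. Aminoacyl-tRNA synthetases, which load amino acids, had 16 of 20 lower and none higher. After scaling 9 were still lower (45%), against 21.3% of all genes, and 1 was higher. Wars, the tryptophan enzyme that interferon-γ is known to induce, had 121, 123 and 122 TPM in M1 cultures, against 480.0, 477 and 446 TPM in control cultures. Iars and Gars, for isoleucine and glycine, had -2.14 and -1.58. Of 31 proteasome genes 2 were higher and 1 lower, or 14 and 0 after scaling.

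Most genes that protect against heat and oxidants rose. Of 21 cytosolic chaperones 12 were higher and 2 lower, or 14 and 1 after scaling. Hspa1a had 736, 880.0 and 854 TPM in M1 cultures, against 1.08, 1.06 and 0.955 TPM in control cultures (log2 fold change 8.66, standard error 0.075, adjusted p = 4.4e-18, limma), and Hspa1b, a near-identical copy, 523, 640.0 and 618 TPM in M1 cultures, against 1.08, 0.679 and 0.721 TPM in control cultures. Hsph1, which exchanges their nucleotides, rose by 2.17 and the cofactor Dnaja1 by 1.74, while Hspa8, the constitutive relative, had 5244, 5322 and 5334 TPM in M1 cultures, against 5282, 5645 and 5956 TPM in control cultures, values that overlapped. Of 20 genes of the Nrf2 antioxidant response 12 were higher and 2 lower, or 16 and 1 after scaling. Hmox1 had 4721, 5113 and 4794 TPM in M1 cultures, against 227, 215 and 206 TPM in control cultures (log2 fold change 4.49, standard error 0.043, adjusted p = 8.1e-18). Gsr, which recycles glutathione, and Srxn1, which repairs peroxiredoxins, both rose by 3.00. The glutathione peroxidases Gpx1 and Gpx4 were the falls, at -1.95 and -0.64, Gpx4 not after scaling.

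Iron genes had 10 of 15 higher and 1 lower, or 13 and 1 after scaling. Ferritin's light chain Ftl1 had 10849, 11533 and 11284 TPM in M1 cultures, against 11141, 10993 and 8817 TPM in control cultures. Those values overlapped, in contrast to the heavy chain above. Ftl1 was not called in TPM as deposited, at 0.13, but was called higher after median-ratio scaling, at 0.60. Slc40a1, the iron exporter, rose by 2.60, Slc11a2, an iron importer, by 1.74, and Lcn2, which captures bacterial iron carriers, by 2.73. Aco1, the enzyme that doubles as an iron sensor, was the fall, at -1.28. Sqstm1, an autophagy receptor, rose by 1.92, while Atg7 of the core machinery fell, at -1.33. Of 21 autophagy receptors and core genes 3 were higher (14.3%), 4 lower (19%) and 14 not called. After scaling 7 were higher (33.3%) and 1 lower (4.76%).

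Markers of the labelled cell type were present in every culture. Emr1, the gene of F4/80, had 1147, 1117 and 1155 TPM in M1 cultures, against 1025, 1047 and 1128 TPM in control cultures, values that overlapped. Of the 14 tested macrophage markers, Emr1 included, 4 were higher (28.6%) and 7 lower (50%), or 4 (28.6%) and 5 (35.7%) after scaling. Over all genes the shares were 13% and 41.2%, or 22.9% and 21.3% after scaling. Csf1r, the receptor for the growth factor in the medium, had 252, 271 and 253 TPM in M1 cultures, against 1374, 1376 and 1306 TPM in control cultures (log2 fold change -2.38, standard error 0.036, adjusted p = 5.0e-16, limma). Mertk, a receptor for dying cells, rose by 1.55, and Cd68 fell, at -1.16. In bulk RNA, fewer cells of a type and less RNA per cell cannot be told apart.

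Markers of other cell types differed in level between lists. The B cell list summed to 2.11 to 2.36 TPM in M1 cultures and 7.03 to 7.73 TPM in control cultures, and the fibroblast list to 3.04 to 3.37 TPM in M1 cultures and 1.95 to 2.47 TPM in control cultures. The T and NK cell list summed to 5.105 to 6.11 TPM in M1 cultures and 6.38 to 6.49 TPM in control cultures. Cd3e, Ncr1 and Hbb-b1 were listed at 0 in all 6 libraries, from which nothing is read, given the zeros of Rpl26 and Hmgcs1. The neutrophil list summed to 88.5 to 95.1 TPM in M1 cultures and 260 to 292 TPM in control cultures. Of its 6 tested genes 5 were lower (83.3%), or 4 (66.7%) after scaling, with few members. Over all genes 41.2% were lower, or 21.3% after scaling. S100a9 was at 47.1 ± 4.10 TPM in M1 cultures and 149 ± 6.89 TPM in control cultures (SD, n = 3 each), S100a8 at 34.7 ± 7.74 TPM in M1 cultures and 88.6 ± 12.7 TPM in control cultures (SD, n = 3 each) and Ngp, a granule protein, at 5.81 ± 0.523 TPM in M1 cultures and 28.8 ± 1.88 TPM in control cultures (SD, n = 3 each). The granule genes Mpo and Elane were at most 0.505 and 0.311 TPM. The dendritic cell list summed to 1859 to 2006 TPM in M1 cultures and 735 to 833 TPM in control cultures, most of it Bst2, an interferon-induced gene. Of its 4 tested genes Clec9a, at 5.01 ± 0.887 TPM in M1 cultures and 76.7 ± 4.33 TPM in control cultures (SD, n = 3 each), was called lower, and Bst2, Ccr7 and Xcr1 were called higher, Xcr1 at 7.16 ± 0.850 TPM in M1 cultures and 2.74 ± 0.318 TPM in control cultures (SD, n = 3 each). Flt3 and Zbtb46 of the same list were at most 0.302 and 0.405 TPM. Pf4, listed with platelet markers, was at 134 ± 3.29 TPM in M1 cultures and 245 ± 7.18 TPM in control cultures (SD, n = 3 each) and was called lower. After scaling Pf4 was not called, at -0.39. The part of such cells in the changes above was not tested.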

How the data were processed

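RNA of 12 macrophage cultures was sequenced from stranded mRNA libraries, and the 6 WT libraries were compared here. Trimming, mapping to the mm10 genome and gene values in TPM were done by the authors with CLC Genomics Workbench, and each deposited library sums to 1000000. The software version, annotation and read numbers are not given in the sources used here, so the depth is unknown and precision was taken from the spread between cultures. A second deposited table holds the authors' fold changes, p-values and FDR values and was not used.

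Fold changes came from limma 3.58.1 in R 4.3.3 on log2(TPM + 1), with variances moderated along a trend. All 12 libraries entered the fit (4 group means, 8 residual degrees of freedom) so that the groups shared 1 estimate of spread, and p-values were adjusted by Benjamini-Hochberg over the 10594 genes. Residuals had an SD of 0.085 to 0.14 on the log2 scale per library. The fit was tested on simulated data of this comparison: all 200 genes changed 2-fold were called, with 1 false call among the rest of the 10594. The changed genes lay well above the minimum level, rises and falls were equal in number, and library totals were not fixed. The test therefore does not cover the detection of changes near 1 TPM or the scaling between libraries.

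Named genes are the 10 largest rises and 10 largest falls, up to 3 called members per direction of each list by smallest adjusted p, the 10 largest gains and losses in mean TPM, cell type markers and housekeeping genes. A few others, such as Tlr4, Ptgs1 and Gbp5, were named after their values were seen. Members and lists were chosen with earlier results of these data known. Alternatives varied the pseudocount, minimum level, scaling, variance model, fold and libraries. Mitochondrially encoded genes, Spi1 and Ly6g were not analysed here, and some list members that were counted are not reported singly. Promoter windows came from RefSeq, GRCm38.p6.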

Additional observations from a re-analysis of the deposited data

How the results depend on the processing

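The counts of calls depended on the scaling and on the fold, and hardly on the variance model. Genes called higher and lower, 1374 and 4366 in TPM as deposited, came to 2428 and 2254 after median-ratio scaling, 2090 and 2517 after quantile normalization, and 2440 and 2235 after scaling by the housekeeping list. With the adjusted p alone they were 2380 and 6765, and with a fold over 2 they were 856 and 2218. The median log2 fold change, -0.43, came to -0.47 and -0.30 with pseudocounts of 0.1 and 5, -0.16 with no filter on low values, -0.0015 after median-ratio scaling, -0.0896 after quantile normalization, 0.0027 after scaling by the housekeeping list and -0.36 without the 50 most abundant genes. Leaving out 1 culture at a time gave 1362 to 1395 genes higher, 4271 to 4486 lower and a median of -0.45 to -0.42. WT control replicate 3 moved the most calls, 430, against 200 to 320 for each other culture. The other alternatives, in pseudocount and in the minimum level, kept both counts within 1.5 times.

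Of the genes given with values, 5 changed direction, and none of them had been called. Gbp5 was at 0.43 after median-ratio scaling, 0.43 after scaling by the housekeeping list and 0.047 without the 50 most abundant genes, and Hspa8 at 0.39 under each of the first 2. After quantile normalization Ftl1 was at -0.44, H2-Aa at -0.14 and Actb at -0.13.

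Replicate numbers are shared between the groups in the labels. Deviations from the group means correlated at -0.27, 0.29 and -0.088 between cultures of the same number. Between cultures of different numbers they correlated at -0.36 to 0.40. With 3 cultures per group these values cannot tell whether cultures of the same number share an origin. With the replicate block the counts were 1374 and 4366, and no call differed. That identity is no sign of stability. Of 5742 genes past the fold only 2 missed the adjusted p, so changes to the variance could hardly move a count. The same holds for variances moderated without a trend and for the 6 WT libraries alone, where 9121 and 8855 genes passed the adjusted p, against 9145. The depth of the libraries is unknown from TPM, which limits what can be said of genes near 1 TPM.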

Other observations

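Cfb, the protease of the alternative pathway, and C3, its central component, were called higher, with log2 fold changes of 1.14 and 1.08 (limma on log2(TPM + 1), 3 cultures per group). C3 was at 1975 ± 22.6 TPM in M1 cultures and 935 ± 24.7 TPM in control cultures (SD, n = 3 each). Of 10 tested complement genes 3 were higher and 3 lower, or 3 and 1 after median-ratio scaling. The share of rises was 30% under both, against 13% and 22.9% of all genes, with few members.

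Of 17 integrin and adhesion genes 4 were higher (23.5%) and 6 lower (35.3%), or 4 (23.5%) and 3 (17.6%) after scaling. The shares after scaling lie near the 22.9% and 21.3% of all genes, so the list as a whole does not stand out from them. Vcam1, a ligand for leukocyte integrins, rose by 2.42, Itga5, a chain of the fibronectin receptor, by 1.61, and Itgal, a chain of the integrin LFA-1, by 1.13. Itgb7 and Itga4, which pair with each other, had log2 fold changes of -1.63 and -1.50. Itga4 had 48.7, 37.1 and 42.2 TPM in M1 cultures, against 114, 114 and 138 TPM in control cultures, without overlap.

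Of 15 housekeeping genes 1 was called higher (6.67%) and 5 lower (33.3%) in TPM as deposited, against 13% and 41.2% of all genes. After scaling 5 were higher (33.3%) and 3 lower (20%), against 22.9% and 21.3%. Hprt, a common reference gene of purine salvage, had 71.1, 61.5 and 63.2 TPM in M1 cultures, against 333, 332 and 423 TPM in control cultures and fell, at -2.45, and -1.98 after median-ratio scaling. Actb had 8699, 8717 and 8922 TPM in M1 cultures, against 8481, 8226 and 7567 TPM in control cultures, and it was called higher only after scaling, at 0.59.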
